A study of Rattus norvegicus with 32 samples.

Results

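The genes described here are the ligands and receptors of axon guidance in the rat brain. They were chosen by name from the annotation used for counting: the semaphorins of classes 3 to 7, the plexins, the Eph receptors and ephrins, the Slits and Robos, the netrins, the Unc5 receptors, Dcc, Nrp1 and Nrp2. Of 28914 genes in the files, 68 matched and 67 had at least 100 reads over the 32 samples; Robo4 matched with 0 reads in any sample and was left out. The samples came from adult male Sprague-Dawley rats given methamphetamine (METH, 10 mg/kg) or saline (Sal) as 4 intraperitoneal injections 2 h apart; the rats were killed 24 h after the final dose. Total RNA depleted of ribosomal RNA was sequenced from the nucleus accumbens (NAc), dentate gyrus (DG), cornu ammonis (CA) and subventricular zone (SVZ), with 4 Sal and 4 METH samples for each region. No genetic alteration was involved, and saline-injected rats were the only controls. Nothing in the labels says which samples came from the same rat, so the p-values measure the spread between these samples, which may be technical. In the file headers SVZ METH 1 and 2 carry the same library number, and so do SVZ METH 3 and 4. An added tag is on SVZ METH 2 and METH 4, and also on SVZ Sal 1 and Sal 2. The 4 SVZ METH samples may therefore come from fewer animals, and p-values that rest on them may be too small.

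Guidance molecules steer growing axons and migrating neurons, and many stay on in the adult brain, where they act at synapses and on glia. Class 3 semaphorins are secreted and bind neuropilins, which signal through plexins; most other semaphorins sit in the membrane and bind plexins directly. Slits bind Robos and chiefly repel. Netrins attract through Dcc and repel through Unc5 receptors. Ephrins are anchored to the membrane and signal with Eph receptors at contacts between cells, in both directions. In the hippocampus these families are known for placing mossy fibres and entorhinal axons in their layers, and in the striatum for setting up dopaminergic and thalamic input.

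The 67 members fell into 12 families: 7 secreted and 13 membrane semaphorins, 2 neuropilins, 9 plexins, 5 ephrins-A, 3 ephrins-B, 8 EphA and 5 EphB receptors, 3 Slits, 3 Robos, 4 netrins and 5 netrin receptors. Levels are given as CPM, read counts scaled to a common library size. Per kilobase of exon, which allows genes to be compared, the mean level over the 16 saline samples was highest for Epha4, an EphA receptor of neurons and glia, at 54.5 CPM per kb. Sema7a, a semaphorin held in the membrane by a lipid anchor, followed at 50.5 CPM per kb and Efnb3, an ephrin-B, at 35.2. The lowest levels were those of Epha2 at 0.293, Efna4 at 0.374 and Epha1 at 0.462 CPM per kb. Efna4 did not pass the filter on low counts in the comparisons with 66 members; all 67 passed in the others. Epha1 overlaps Zyx on the opposite strand and the counting did not use strand, so its reads are uncertain. Ntn5 falls in the span of RF00105, a small RNA name that covers loci on both strands. Whether any of those loci overlaps Ntn5 was not looked at.

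The sequence before the transcription start is shown for Nrp1, Unc5a, Efna3 and Efna5, which carry contrasts between regions or treatments described in the results, to set their promoters side by side. Nrp1 is the neuropilin that binds Sema3a, Unc5a a netrin receptor of neurons, and Efna3 and Efna5 ligands of EphA receptors. The sequences are the 250 bases upstream of the start in RefSeq on the GRCr8 build, 5′ to 3′ on the gene's strand, and capitals mark GGGCGG or its reverse complement, the GC box.
Nrp1, chr19:73256307-73256556, plus strand: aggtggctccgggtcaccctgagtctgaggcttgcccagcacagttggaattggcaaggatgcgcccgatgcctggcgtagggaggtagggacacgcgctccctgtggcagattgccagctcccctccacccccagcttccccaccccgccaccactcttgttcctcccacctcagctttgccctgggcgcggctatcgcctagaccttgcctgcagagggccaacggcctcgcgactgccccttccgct
Unc5a, chr17:9675664-9675913, minus strand: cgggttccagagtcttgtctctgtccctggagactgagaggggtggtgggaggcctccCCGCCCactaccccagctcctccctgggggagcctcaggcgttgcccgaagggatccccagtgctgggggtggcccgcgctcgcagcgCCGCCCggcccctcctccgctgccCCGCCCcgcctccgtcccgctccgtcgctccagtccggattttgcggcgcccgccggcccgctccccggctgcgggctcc
Efna3, chr2:177035839-177036088, minus strand: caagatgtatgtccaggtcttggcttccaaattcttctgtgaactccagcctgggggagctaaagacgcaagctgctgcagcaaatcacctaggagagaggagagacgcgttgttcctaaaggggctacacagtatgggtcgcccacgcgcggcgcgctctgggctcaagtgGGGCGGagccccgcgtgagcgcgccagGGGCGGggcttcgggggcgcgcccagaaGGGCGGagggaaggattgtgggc
Efna5, chr9:110042188-110042437, minus strand: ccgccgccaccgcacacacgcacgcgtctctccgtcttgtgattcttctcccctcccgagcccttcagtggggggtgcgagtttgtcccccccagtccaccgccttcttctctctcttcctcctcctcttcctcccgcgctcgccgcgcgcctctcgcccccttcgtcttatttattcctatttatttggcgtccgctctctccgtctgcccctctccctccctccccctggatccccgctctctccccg

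The GC box was found 3 times in the Unc5a and 3 times in the Efna3 window, and 0 times in those of Nrp1 and Efna5. RefSeq promoters were matched for 52 of the 67 members, with 53 entries in all. Searched on both strands, GGGCGG was in 29 of the 53 (54.7%), against 55.2% of the promoters of the genes tested and 30.5% of all 33469 promoters. CAGCTG, an E-box, was in 12 of the 53 (22.6%), against 12.6% and 12.0%. The TATA box sequence TATAAA was in 0 of the 53, against 6.83% of tested genes and 12.9% of all promoters. A match is a description of letters and not a binding site. The read counts themselves refer to the older rn6 build, on which Nrp1 lies on chromosome 19 from 61332351 to 61485858, Unc5a on chromosome 17 from 10153994 to 10208360, Efna3 on chromosome 2 from 188637852 to 188645196 and Efna5 on chromosome 9 from 110057155 to 110225486.

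The libraries held between 11094002 and 21869773 reads in genes. Several carried cell type markers that went against their labels, and the results are given with and without them. The summed level of 8 markers of medium spiny neurons, the principal neurons of the accumbens, was 1997 CPM in DG Sal 3 against 248 to 350 in the other DG Sal samples, and Neurod6, a gene of hippocampal pyramidal neurons, had 1 read there. In NAc METH 3 the same sum was 262 CPM, against 3348 to 3932 in the other NAc METH samples. Thalamic markers summed to 2261, 2019 and 1344 CPM in SVZ Sal 1, METH 2 and METH 4, against 118 to 623 in the other SVZ samples. Those libraries with high sums all carry the added header tag, and so does SVZ Sal 2, which was among the others. Markers of dentate granule neurons did not set DG apart from CA: the sums were 536, 247, 232 and 250 CPM in DG Sal, 759, 654, 221 and 551 in DG METH, 616, 309, 804 and 369 in CA Sal, and 288, 399, 519 and 464 in CA METH. Choroid plexus markers were high, at 2059 to 8037 CPM, in DG Sal 4, DG METH 3, CA Sal 2 and SVZ METH 3. Neuroblast markers, which would mark the SVZ, summed to 56.3 to 407 CPM there and to 74.3 to 198 in the other regions. In the file headers, DG Sal 1 and 2 carried library numbers that belong to METH samples in NAc and CA, and DG METH 1 and 2 carried numbers that belong to saline samples there. SVZ libraries carried header numbers from 1667 to 1672, and those of NAc, DG and CA numbers from 14 to 25. Region and header series therefore cannot be told apart in any contrast of SVZ with the other regions. In bulk tissue, fewer cells of a type and less RNA per cell cannot be told apart.

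**Figure D1:**
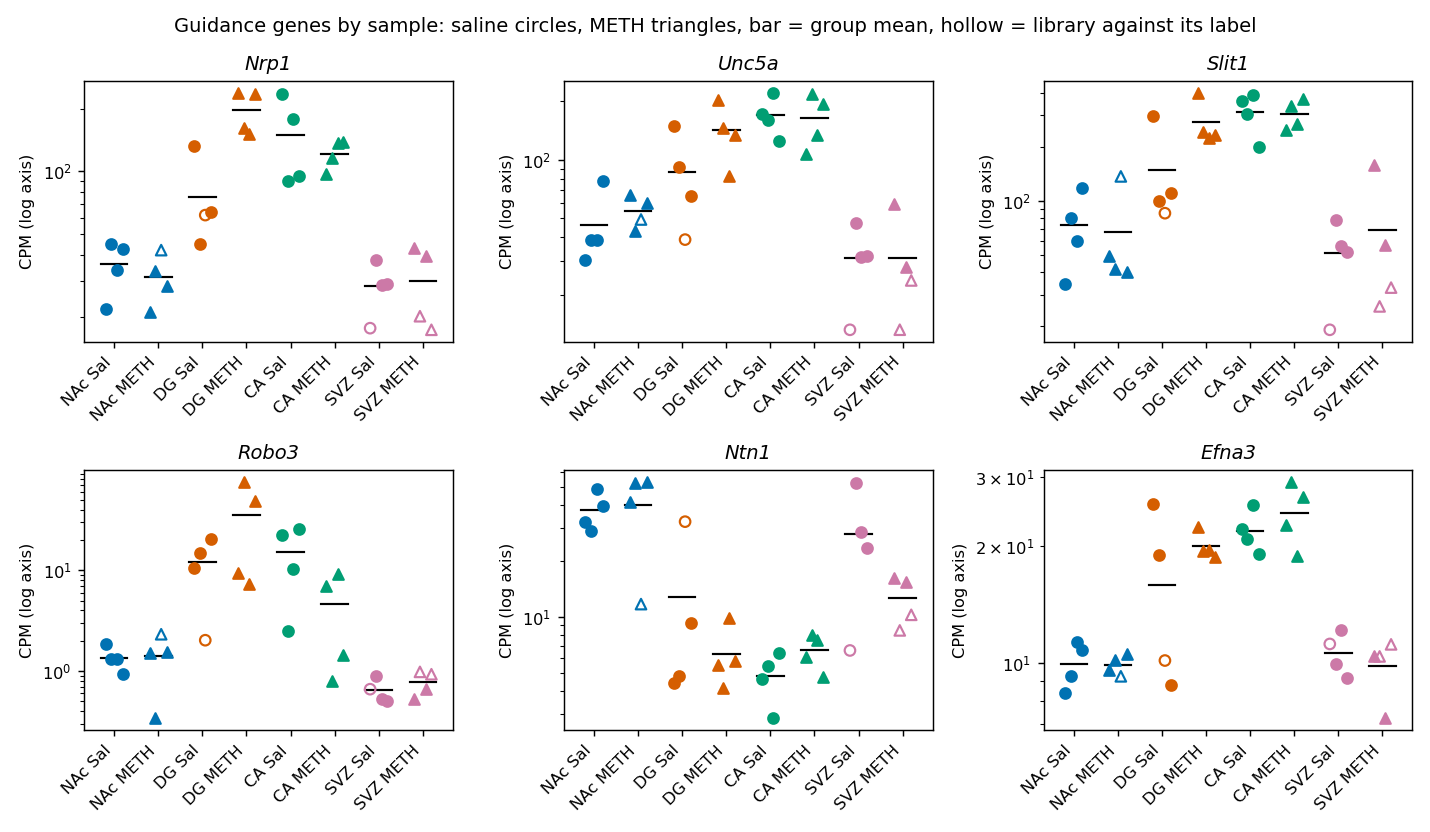
CPM on log axes of 6 guidance genes in each of the 32 samples, by region, with saline as circles, METH as triangles and the mean of each group of 4 as a line; hollow points are libraries whose markers go against their label. Nrp1, Slit1 and Unc5a sit higher in the hippocampal regions, and Ntn1 sits higher in NAc and in part of the SVZ samples.

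The first question was which guidance genes differed between brain regions in saline rats. In 1 model of the 16 saline samples (edgeR quasi-likelihood test, false discovery rate (FDR) over all genes), 10 of the 66 members tested differed among the 4 regions at an FDR under 0.05, against 5.79% of all genes. These were Robo3, Nrp1, Unc5a, Plxna1, Slit1, Ephb2, Plxna4, Ephb6, Efna3 and Ntn1. The clearest contrasts were those of CA. Against the mean of the other 3 regions, 11 of 66 members passed in CA (7.19% of all genes did), 9 of them higher (4.22% of all genes) and 2 lower (2.97%). The 9 were spread over 8 of the families and had 2 plexins among them. In NAc and in DG, 0 of 66 members passed (0.0% of all genes in each). At an unadjusted p under 0.05 the count was 11 in NAc (15.0% of all genes) and 8 in DG (6.78%), and DESeq2 called 1 in each at the FDR (1.4% and 0.119% of all genes). In SVZ 4 members passed, all lower (4.83% of all genes passed, 1.55% lower).

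Nrp1, the Sema3a-binding neuropilin, was at 235, 90.4, 179 and 95.4 CPM in CA Sal, at 132, 45.1, 61.8 and 64.1 in DG Sal, at 22.0, 45.2, 33.6 and 42.7 in NAc Sal and at 17.8, 37.5, 28.5 and 29.0 in SVZ Sal. Every CA sample was above every NAc and SVZ sample, and DG Sal 1 lay within the CA range. The log2 fold change of CA against the mean of the other regions was 1.79 ± 0.284 (SE, edgeR FDR = 0.00946), and that of SVZ was -1.37 (FDR = 0.0368). In the METH samples, which this fit did not use, Nrp1 was higher in CA by 1.05 (FDR = 0.0177) and lower in SVZ by a log2 change of -1.56 (FDR = 0.00191).

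Slit1, a secreted repellent of neurons, had 361, 305, 390 and 199 CPM in CA Sal, against 34.5, 80.2, 60.0 and 119 in NAc Sal and 19.2, 78.7, 56.5 and 51.9 in SVZ Sal. In DG Sal it was at 296, 99.8, 85.6 and 111 CPM, so that DG Sal 1 alone stood at the CA level. The log2 fold change in CA was 1.90 ± 0.354 (SE, edgeR FDR = 0.0122) in saline and 1.46 (FDR = 0.0441) in METH samples. Slit2 and Slit3, its relatives, were at 0.91 (FDR = 0.0847) and 0.74 (FDR = 0.092) in saline, short of the threshold. In METH samples Slit3 passed in CA at 0.95 (FDR = 0.0168). Summed per kilobase, the 3 Slits were at 108 CPM per kb in CA Sal, 60.0 in DG Sal, 41.1 in NAc Sal and 31.9 in SVZ Sal.

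Of the Slit receptors, Robo3 had the regional contrast. Robo3, a divergent Robo known from commissural axons, was at 22.2, 2.49, 10.3 and 25.8 CPM in CA Sal and at 10.6, 14.9, 2.02 and 20.4 in DG Sal. It was at 0.94 to 1.85 CPM in NAc Sal and at 0.502 to 0.889 in SVZ Sal, below every hippocampal sample. Its values varied widely within each hippocampal group. The log2 change was 2.76 ± 0.468 (SE, edgeR FDR = 0.00967) in CA, 2.32 (FDR = 0.134) in DG and -3.23 ± 0.651 (FDR = 0.0233) in SVZ. In METH samples Robo3 was highest in DG, at 9.48, 75.9, 7.27 and 48.2 CPM, with overlap with CA METH at 0.8 to 9.23 (log2 4.33, FDR = 0.000458). Robo1, the broadly expressed Slit receptor, was at 134, 130, 168 and 134 CPM in NAc Sal and at 149, 95.2, 98.1 and 84.3 in CA Sal, and Robo2 was at 141 to 325 in NAc Sal and 156 to 224 in CA Sal; neither passed in any region in saline.

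Among netrins and their receptors, ligand and receptor differed in opposite directions in CA. Unc5a was at 173, 161, 222 and 125 CPM in CA Sal. It was at 30.5, 38.3, 38.6 and 77.4 in NAc Sal and 13.2, 47.2, 31.5 and 32 in SVZ Sal, with no overlap with CA. In DG Sal it was at 150, 91.3, 38.7 and 64.7 CPM, so that DG Sal 1 lay within the CA range. The log2 change was 1.74 ± 0.314 (SE, edgeR FDR = 0.0119) in CA and -1.47 (FDR = 0.0404) in SVZ. Ntn1, the founding netrin, was at 4.64, 5.46, 2.84 and 6.39 CPM in CA Sal and at 32.4, 28.9, 48.9 and 39.6 in NAc Sal (CA log2 -2.34 ± 0.592, FDR = 0.0338). Dcc, the attractive netrin receptor, was at 128, 95.6, 125 and 97.0 CPM in NAc Sal and at 103, 67.7, 88.6 and 60.8 in CA Sal, groups that overlapped, and it passed in no region in saline. Summed per kilobase, the netrins were at 29.1 CPM per kb in NAc Sal and 12.9 in CA Sal, and the 5 netrin receptors at 72.2 and 127.

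Ntn1 moved with the libraries whose markers went against their labels. In DG Sal it was at 4.42, 4.80, 32.5 and 9.25 CPM, with the high value in DG Sal 3, the library with the medium spiny markers. In NAc METH it was at 41.7, 52.5, 11.7 and 53.4, with the low value in NAc METH 3, the library with few of them. In SVZ Sal it was at 6.59 CPM in Sal 1, which carried thalamic markers, and at 52.3, 28.8 and 23.6 in the others. Every library with a medium spiny sum of 1678 CPM or more had at least 15.5 CPM of Ntn1, and every other library, with a sum of at most 893, had at most 11.7. The log2 change in NAc was 1.65 ± 0.466 (SE, edgeR FDR = 0.208) over all saline samples and 1.90 (FDR = 0.00157) without DG Sal 3 and SVZ Sal 1. DG Sal 3 was left out for the medium spiny markers that Ntn1 followed, so the second value is not separate from that choice. In METH samples the log2 change in NAc was 2.31 (FDR = 0.00077).

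**Figure D2:**
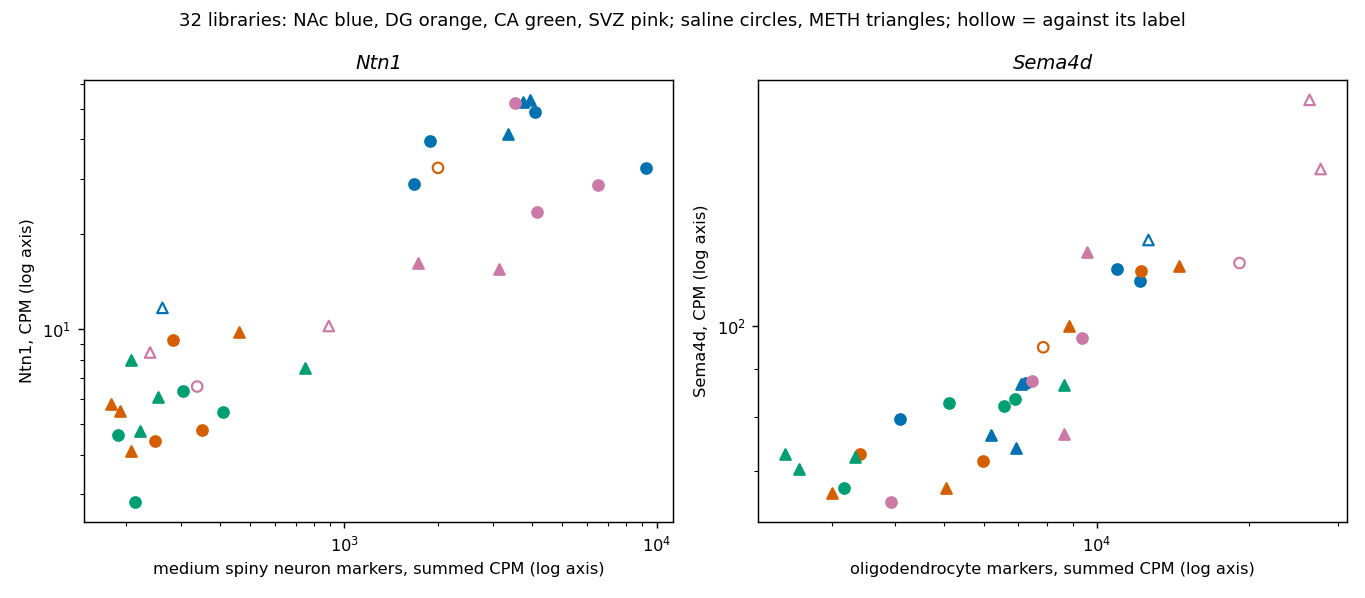
CPM of Ntn1 and Sema4d against the summed CPM of medium spiny and oligodendrocyte markers, on log axes, in all 32 libraries; hollow points are libraries whose markers go against their label. Ntn1 separates libraries by their medium spiny sum, including the hollow ones, and Sema4d is highest in the SVZ libraries with the highest oligodendrocyte sums.

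In the semaphorin system 3 receptors, Nrp1 among them, were higher in CA and a ligand was lower. Plxna1 and Plxna4, co-receptors that pass the signal of secreted semaphorins, had log2 changes of 1.06 (FDR = 0.0124) and 0.97 (FDR = 0.0144, edgeR). Plxna4 was at 385, 219, 358 and 216 CPM in CA Sal. It was at 102, 151, 155 and 184 in NAc Sal and 108 to 131 in SVZ Sal, with no overlap with CA. In DG Sal it was at 274, 162, 140 and 147 CPM, so that DG Sal 1 lay within the CA range. Sema3f, which binds Nrp2, was at 1.22, 8.03, 2.04 and 10.8 CPM in CA Sal and at 6.19, 15.7, 27.5 and 18.4 in DG Sal, groups that overlapped (CA log2 -2.05 ± 0.581, FDR = 0.048). Sema3c, another secreted ligand, was lower in SVZ, at 6.12, 25.4, 7.16 and 9.37 CPM (log2 -1.90, FDR = 0.0488). Nrp2 was at 171, 80.2, 145 and 40.4 CPM in CA Sal and passed in no region in saline.

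Of the ephrin system, 3 members were higher in CA. Efna3 was at 22.1, 20.8, 25.5 and 19.1 CPM in CA Sal, against 8.40 to 11.3 in NAc Sal and 9.15 to 12.2 in SVZ Sal, with no overlap (log2 0.86 ± 0.198, edgeR FDR = 0.0248). In DG Sal it was at 25.6 and 18.9 CPM in replicates 1 and 2 and at 10.2 and 8.77 in replicates 3 and 4. The receptors Ephb2 and Epha5 were at log2 0.97 (FDR = 0.0347) and 0.93 (FDR = 0.0408). In METH samples Efna3 was again higher in CA, at 22.7, 29.3, 18.9 and 26.7 CPM (log2 0.92, FDR = 0.00104).

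The calls in CA rested on 2 libraries: without CA Sal 1 or without CA Sal 3 no member passed, while Nrp1 was at log2 1.49 (FDR = 0.0654) and 1.69 (FDR = 0.0503, edgeR). Those were the CA Sal libraries with the highest dentate granule sums. Without DG Sal 3 and SVZ Sal 1, 19 members differed among regions (20.2% of all genes in that fit), 15 in CA (11.6%), 10 in SVZ (15.0%), 5 in DG (4.31%) and 3 in NAc (4.88%), so that the share of all genes called went up as well. With the replicate number as a block, 2 members differed among regions (2.42% of all genes), 9 in CA (5.39%) and 1 in SVZ (2.66%). The labels do not say that the numbers mark shared rats. In DG, replicates 1 and 2 carry other header numbers than the same replicates in NAc and CA, and SVZ has its own series. The block therefore cannot serve as a check on shared rats. Same-numbered saline samples of NAc and CA, which carry the same header numbers, had deviations from their group means that correlated at 0.118 to 0.245 in 4 of 4 pairs, and no other pair of regions had all 4 over 0.1. The SVZ calls in saline also rested on single libraries, with 0 left without SVZ Sal 3. The share of all genes passing without CA Sal 1, CA Sal 3 or SVZ Sal 3 is not given. In DG the calls without the doubtful libraries included Robo3 at log2 2.68 (FDR = 0.00951), and in SVZ Ntn1 at 1.78 (FDR = 0.00197). DG Sal 3 and SVZ Sal 1 held the lowest Robo3 and Ntn1 values of their groups, at 2.02 and 6.59 CPM. Leaving them out therefore raised those group means.

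The same contrasts were fitted in the METH samples, which are separate libraries. There 33 of 67 members differed among regions (28.7% of all genes). In NAc 10 passed (7.32%), and 6 with a replicate block (5.34%). There were 17 in DG (9.22%), 9 in CA (5.26%) and 26 in SVZ (26.6%). The 11 members called in CA in saline all had the same sign in METH samples, and Slit1, Efna3, Unc5a and Nrp1 passed in both, 4 of 11 in saline and 4 of 9 in METH samples. The other 7 did not pass there: both lower members, Ntn1 at log2 -1.20 (FDR = 0.0582) and Sema3f at -0.78 (FDR = 0.367), were among them, and in CA 0 members were called lower in METH samples. Of 1110 genes called in CA in saline, 1067 had the same sign and 333 passed in both. In METH samples Nrp1, Efna3 and Unc5a also passed as higher in DG, at log2 2.01, 0.58 and 1.11 (edgeR FDR = 0.000109, 0.00513 and 0.0267). Slit1 was at 1.29 in DG (FDR = 0.053). In METH samples the higher levels were therefore not particular to CA. The 4 members called in SVZ in saline passed in METH samples too. Over all members tested, the share with the same sign was 69.7% in CA (75.9% of all genes), 84.8% in SVZ (78.2%), 87.9% in NAc (78.4%) and 59.1% in DG (53.7%).

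**Figure D3:**
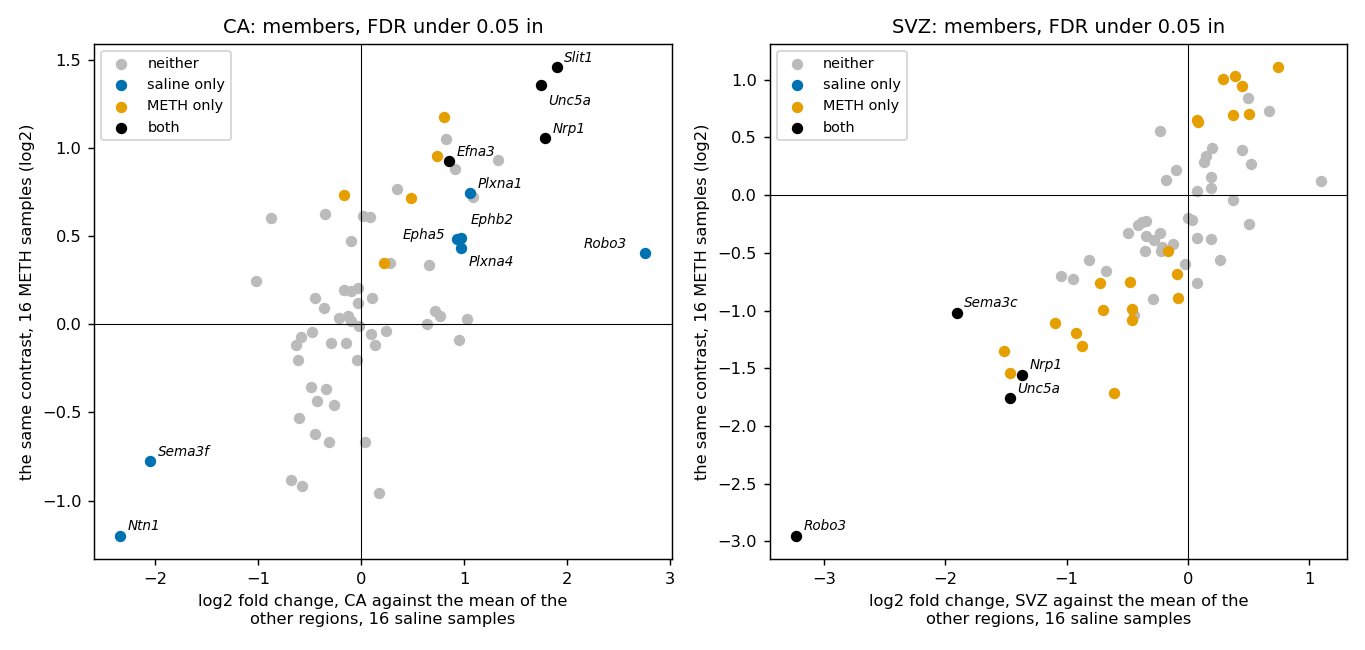
Log2 fold change of CA and of SVZ against the mean of the other regions for each member, in 16 saline samples on the x axis and 16 METH samples on the y axis, coloured by where the FDR was under 0.05. The members called in saline lie on the same side of 0 on both axes.

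The METH samples also held contrasts that did not pass in saline. In DG the 17 members called included Sema5a, a semaphorin with thrombospondin repeats, at 570, 514, 215 and 528 CPM against 128 to 154 in NAc METH, 145 to 328 in CA METH and 162 to 255 in SVZ METH. Of the DG samples only METH 3 overlapped CA or SVZ (log2 1.29 ± 0.209 SE, edgeR FDR = 0.00173). Sema3c was at 56.7, 68.3, 44.7 and 82.7 CPM in DG METH and at 12.8 to 24 in SVZ METH (log2 1.28, FDR = 0.00222). Nrp1 at log2 2.01 (FDR = 0.000109) was above every NAc, CA and SVZ METH sample. Epha4 and Epha7 were at 1.14 (FDR = 0.0088) and 1.32 (FDR = 0.0256), and Sema3a at -1.87 (FDR = 0.0121).

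In NAc, Sema3a, the secreted repellent that binds Nrp1, was higher by log2 1.90 (FDR = 0.0049), Plxnd1, a receptor of Sema3e, by 1.62 (FDR = 0.0196) and Efnb2 by 1.43 (FDR = 0.0478, edgeR). In CA the netrin Ntn3 was at 17.1, 23.4, 20.2 and 24.9 CPM against 8.77 to 13.3 in NAc METH, 10.2 to 13.8 in DG METH and 4.64 to 7.41 in SVZ METH. No CA METH sample overlapped another region (log2 1.17 ± 0.132 SE, FDR = 0.000714). In SVZ 18 members were lower (10.8% of all genes), all 3 Slits and both neuropilins among them, and 8 were higher (15.9%). The 8 were Sema3d, Sema4d, Sema4g, Sema6a, Sema6d, Plxnb3, Unc5b and Efna1. Without METH 2 or without METH 4, the libraries with thalamic markers, 13 members passed in SVZ (15.7% and 14.8% of all genes). With the SVZ METH libraries of the same header number summed, 19 passed (14.7%). SVZ had a header series of its own, so region and series cannot be told apart in these counts.

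Sema4d, a semaphorin known from oligodendrocytes, was at 120, 175, 76.6 and 147 CPM in SVZ METH, and the summed oligodendrocyte markers were at 9592, 26357, 8606 and 27720 CPM in the same libraries. In 6 of the 8 groups the sample with the most Sema4d was also the sample with the highest oligodendrocyte sum, and this held in 5 of 8 groups for Plxnb3, a plexin of class B, Unc5b and Sema6d; the median over members was 2. The thalamic list, which holds genes such as Tcf7l2 that newly formed oligodendrocytes also use, matched in 7 groups for Sema4d, in 8 for Sema6d and in 6 for Plxnb3 and Unc5b, and the 2 lists were high in the same 3 SVZ libraries. The part of oligodendrocyte or thalamic content in the SVZ contrast was not tested.

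The main question of the study was how METH exposure altered expression in each region. At an FDR under 0.05, 0 members passed in NAc, DG, CA or SVZ (edgeR). Of all genes, 0.0%, 0.00676%, 0.0% and 0.0% passed. At an unadjusted p under 0.05 there were 3 of 66 members in NAc (3.39% of all genes), 17 of 66 in DG (12.8%), 8 of 66 in CA (7.16%) and 1 of 67 in SVZ (2.58%). In DG DESeq2 called 9 members at an FDR under 0.05 (3.6% of all genes), and in the other regions 0 (0.0542% in NAc, 0.192% in CA and 0.0258% in SVZ). The median log2 fold change of the members was 0.05 in NAc, 0.09 in DG, 0.10 in CA and 0.02 in SVZ, against 0.03, -0.01, 0.01 and 0.02 over all genes.

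In DG, 11 members were higher in METH samples at an unadjusted p under 0.05 (6.35% of all genes) and 6 lower (6.42%). By family, the higher ones were 4 EphA receptors, both neuropilins, 2 plexins, and 1 each of the Slits, secreted and membrane semaphorins. The lower ones were 2 secreted semaphorins and 1 each of the ephrins-A, ephrins-B, EphA receptors and plexins. Receptors made up 8 of the 11 higher members, the ligands among them being Sema3e, Sema5a and Slit1, and ligands 4 of the 6 lower ones, the receptors being Plxnd1 and Epha10, while 32 of the 66 members tested are receptors. In 7 of 66 members the 4 METH values did not overlap the 4 saline values (6.8% of all genes): Sema3e, Plxna1, Epha4 and Nrp1 were higher (3.15% of all genes) and Sema3a, Efna5 and Efnb2 lower (3.66%).

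Nrp1 was at 132, 45.1, 61.8 and 64.1 CPM in DG Sal and at 238, 162, 150 and 236 in DG METH. All METH values were above all saline values (log2 1.39 ± 0.328 SE, edgeR FDR = 0.184). Its secreted ligand Sema3a went the other way, at 8.77, 37.0, 7.89 and 33.1 CPM in DG Sal and 3.53, 7.81, 5.11 and 1.45 in DG METH. The groups were apart, but DG METH 2 lay only just below the lowest saline sample (log2 -2.26 ± 0.661 SE, FDR = 0.242).

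Plxna1 had the smallest p of the members. It was at 186, 190, 161 and 147 CPM in DG Sal and at 243, 253, 277 and 264 in DG METH, with narrow spread in both groups (log2 0.62 ± 0.0988 SE, edgeR FDR = 0.157). Plxna4 was at 274, 162, 140 and 147 CPM in DG Sal and 367, 375, 216 and 437 in DG METH, with DG METH 3 below DG Sal 1 (log2 0.97, FDR = 0.219). Sema3e, which signals through Plxnd1 without a neuropilin, was at 81.2, 56.9, 28.1 and 64.5 in DG Sal and at 96.3, 99.3, 88.0 and 105 in DG METH (log2 0.77, FDR = 0.294). Its receptor Plxnd1 was at log2 -0.88 (FDR = 0.387), and Sema3f at -2.06 (FDR = 0.28).

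Efna5, an ephrin-A that repels axons by EphA receptors, was at 5.39, 16.6, 11.6 and 14.6 CPM in DG Sal and at 1.18, 3.54, 2.85 and 1.64 in DG METH. The groups were apart, with DG Sal 1 nearest to the METH samples (log2 -2.37 ± 0.447 SE, edgeR FDR = 0.157). Efnb2, an ephrin-B of neurons and vessels, was at 63.0, 72.6, 86.3 and 44.0 CPM in DG Sal and at 32, 27.3, 20.2 and 15.4 in DG METH, also apart (log2 -1.47 ± 0.265 SE, FDR = 0.157). Epha4, which binds both, was at 343, 442, 218 and 204 in DG Sal and 580, 551, 478 and 700 in DG METH (log2 0.96 ± 0.24 SE, FDR = 0.199).

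The other EphA receptors overlapped between the groups. Epha3 was at 8.12 to 21.6 CPM in DG Sal and 19.6 to 37.7 in DG METH (log2 0.91), Epha7 at 48.3 to 117 and 65.6 to 299 (1.14), and Epha8 at 7.52 to 20.6 and 10.6 to 65.5 (1.63). Epha10, a receptor without an active kinase, was lower, at 10.2 to 28.2 and 8.18 to 11.6 (-0.84). Their FDRs lay between 0.281 and 0.367 (edgeR). In the Slit system Slit1 was at log2 0.92 (FDR = 0.389), with 401, 244, 224 and 235 CPM in DG METH.

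**Figure D4:**
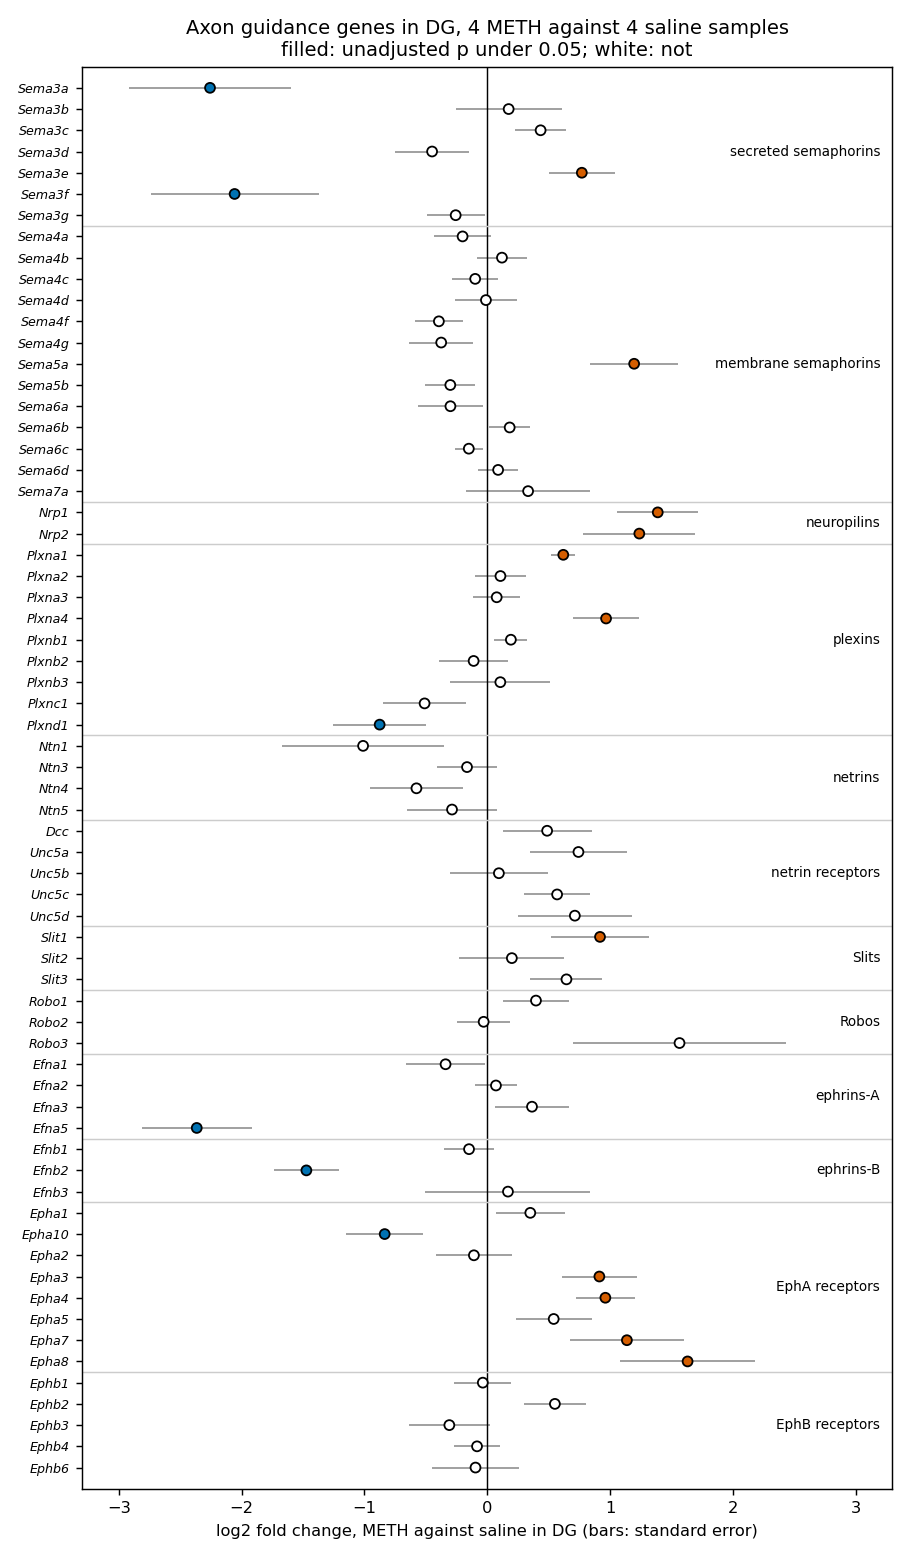
Log2 fold change of METH against saline in DG on the x axis, with its standard error as a bar, for the 66 members tested, grouped by family; filled points have an unadjusted p under 0.05, orange for higher and blue for lower. The 17 filled points are 11 higher and 6 lower members, with Efna5 at -2.37 and Epha8 at 1.63 as the extremes.

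Leaving out DG Sal 3, the library with medium spiny markers, left 15 members at an unadjusted p under 0.05 (13.9% of all genes), with Plxna1 at log2 0.60, Efnb2 at -1.31, Efna5 at -2.37, Nrp1 at 1.31, Epha4 at 0.84 and Sema3a at -2.53. The 4 DG samples whose header numbers were not at odds with their labels (Sal 3, Sal 4, METH 3 and METH 4) gave Plxna1 at 0.80, Efnb2 at -1.88, Efna5 at -2.54, Epha4 at 1.46 and Sema3a at -2.64, and 14 members at that threshold (6.72% of all genes). Name strings in the file headers were taken here as sequencing runs, though the headers do not say that they are runs. In DG this header run nearly follows treatment: 1 held only Sal 1, 2 and 4 and another only METH 3 and 4. With header run as a covariate, the METH effect in DG therefore rests on DG Sal 3 against METH 1 and 2. DG Sal 3 is the library with medium spiny markers. In that fit Sema3a was at -0.50 (FDR = 0.903) and Efna5 at -2.32 (edgeR). Header run and treatment cannot be told apart in the other DG samples. NAc and CA are affected too. In NAc only Sal 3 and 4 and METH 1 and 2 share a header run, so that fit rests on them. In CA, Sal 1 and 2 share their header tag with no METH sample.

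For 5 of these genes, chosen after their values were seen, the direction was also found between saline samples of CA. CA Sal 1 and 3, with dentate granule sums of 616 and 804 CPM, had Nrp1 at 235 and 179, Epha4 at 715 and 481, Efna5 at 0.812 and 2.28, Sema3a at 1.28 and 2.59 and Sema3f at 1.22 and 2.04 CPM. CA Sal 2 and 4, with sums of 309 and 369, had Nrp1 at 90.4 and 95.4, Epha4 at 319 and 396, Efna5 at 3.04 and 9.59, Sema3a at 19.6 and 27.7 and Sema3f at 8.03 and 10.8. The first pair thus had these 2 receptors higher and these 3 ligands lower, as DG METH samples had against DG Sal samples. It did not hold for receptors as a class: Plxnd1 was at 27.7 and 26.2 CPM in the first pair and at 108 and 75.3 in the second, and it was lower in DG METH samples too. Not every member apart in DG followed. Plxna1 was at 327 and 232 CPM in the first pair and 254 and 245 in the second. Sema3e was at 104 and 81.7 against 67.1 and 92.6, so the pairs overlapped for both genes. Efnb2 did follow, at 15.8 and 48.4 against 68.4 and 56.2. The dentate granule sum was 221 to 759 CPM in DG METH and 232 to 536 in DG Sal. Of 7 dentate markers tested in DG, 1 was higher and 0 lower in METH samples at an unadjusted p under 0.05, with a median log2 fold change of 1.00. DG METH 3 had the lowest sum, 221 CPM, and Nrp1 at 150, Efna5 at 2.85 and Sema3a at 5.11 CPM. The part of dentate content in the DG result was not tested.

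**Figure D5:**
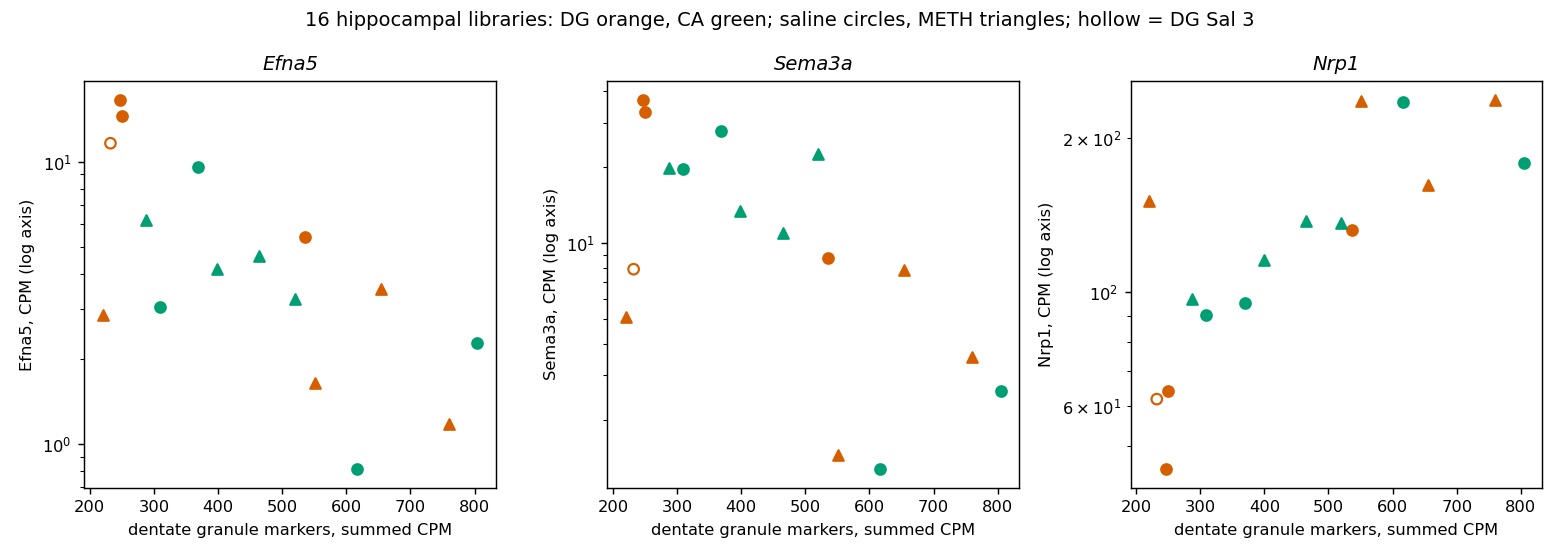
CPM of guidance genes on log axes against the summed CPM of dentate granule markers in the 16 hippocampal libraries, DG in orange and CA in green, saline as circles and METH as triangles; the hollow point is DG Sal 3. The saline CA libraries with the highest sums lie near the DG METH libraries.

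In CA, 6 members were higher (4.37% of all genes) and 2 lower (2.79%) at an unadjusted p under 0.05. Sema4c, a membrane semaphorin that binds Plxnb2, was the 1 of 66 members whose groups did not overlap (4.44% of all genes), at 18.6, 17.9, 21.0 and 20.9 CPM in CA Sal and 25.6, 21.3, 24.5 and 25.1 in CA METH (log2 0.30 ± 0.0947 SE, edgeR FDR = 0.669). Sema3g, a secreted semaphorin, was at 6.20, 7.87, 7.16 and 7.57 CPM in CA Sal and 7.22, 10.8, 12.6 and 12.7 in CA METH (log2 0.60, FDR = 0.669). Epha4 differed the other way than in DG, at 715, 319, 481 and 396 CPM in CA Sal and 309, 298, 362 and 329 in CA METH (log2 -0.56, FDR = 0.687), with overlap. The others were Ntn3, Sema4g, Ephb4 and Sema4a, higher by log2 0.25 to 0.53, and Robo2, at -0.31. Of 5 endothelial markers tested in CA, 3 were higher in METH samples at that threshold and 0 lower, with a median log2 change of 0.39. Of 7 dentate granule markers 1 was higher and 2 lower, with a median of -0.90. The part of vascular or dentate content in the CA values was not tested.

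In NAc, Efnb3 was at 101, 134, 140 and 129 CPM in Sal and 87.9, 114, 76.3 and 89.2 in METH (log2 -0.43, edgeR FDR = 0.999). METH 2 lay above NAc Sal 1, so the groups overlapped. Sema3e was at 51.7, 43.8, 54.4 and 31.5 in Sal and 79.7, 81.2, 40.8 and 80.1 in METH (log2 0.66, FDR = 0.999). The low METH value was that of NAc METH 3, the library with few medium spiny markers. Sema3a was the third, at log2 0.86 (FDR = 0.999). In 0 of 66 members were the groups apart (2.3% of all genes), and without NAc METH 3, 5 members had an unadjusted p under 0.05 (4.83% of all genes).

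In SVZ, Sema3g was at 4.62, 6.50, 6.68 and 6.19 CPM in Sal and 3.03, 3.87, 5.31 and 3.94 in METH (log2 -0.55, edgeR FDR = 0.979). METH 3 lay above Sal 1. The groups were apart in 0 of 67 members (1.69% of all genes). Ntn1 was at log2 -1.13 (FDR = 0.979). Without the 3 libraries with thalamic markers, 9 members had an unadjusted p under 0.05 (6.73% of all genes) and 0 passed the FDR, with Dcc at log2 -0.73 (edgeR FDR = 0.61) and Ntn1 at -1.11. In the full set Dcc was at 15.9, 97.1, 93.7 and 93.3 CPM in Sal and 56.9, 25.3, 55.4 and 40.3 in METH, the low values of each group being those of SVZ Sal 1, METH 2 and METH 4.

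Averaged over the 4 regions, 0 of 67 members passed for a METH effect (0.0% of all genes), and 0 by DESeq2 (0.0685%). At an unadjusted p under 0.05 there were 4 by DESeq2 (8.55%) and 5 by edgeR (7.83%). Efna5 was the lowest in p, with log2 -0.72 ± 0.229 (SE, FDR = 0.516), followed by Sema3e at 0.43, Unc5c at 0.37, Sema3f at -0.68 and Plxna4 at 0.24. For a METH effect that differed between regions, 0 members passed (0.0062% of all genes), and 0 by DESeq2 (0.765%). At an unadjusted p under 0.05 there were 12 by DESeq2 (8.91%) and 8 by edgeR (7.74%). Efna5 (FDR = 0.327), Sema3g (FDR = 0.4) and Nrp1 (FDR = 0.404) came first. Efna5 was at 5.28 to 7.86 CPM in NAc Sal and 2.67 to 6.4 in NAc METH, at 0.812 to 9.59 and 3.25 to 6.18 in CA, and at 4.12 to 8.14 and 4.28 to 5.95 in SVZ. The groups overlapped in those 3 regions and were apart in DG.

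Other genes of the pathway, 65 of 68 listed co-factors and downstream proteins such as the CRMP and MICAL proteins and the Srgap adaptors, were taken from a list set beside the members. For METH against saline 0 passed the FDR in any region (edgeR), and at an unadjusted p under 0.05 there were 3 of 64 tested in NAc, all lower (3.39% of all genes in either direction). In DG there were 6 higher and 10 lower of 65 (6.35% and 6.42%), in CA 4 higher and 1 lower (4.37% and 2.79%), and in SVZ 0 (2.58%). In DG the lowest FDR was that of Gpc1, a glypican that binds Slits, at log2 0.97 (FDR = 0.0646). Across regions in saline, 8 of 65 passed in CA (7.19% of all genes), 6 of them higher, with Mical1, an oxidase that acts on actin below plexins, at log2 1.82 and the adhesion protein Nrcam at 0.92. In SVZ 1 passed (4.83% of all genes), Dscaml1 at -0.71. In METH samples 12 of 65 passed in NAc (7.32%), 15 in DG (9.22%), 11 in CA (5.26%) and 21 in SVZ (26.6%).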

How the data were processed

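RNA-seq counts per gene of 32 rat brain samples, in 8 groups of 4, were used as the authors deposited them. Per the labels and file headers, reads were trimmed with cutadapt 2.7, checked with FastQC 0.11.4, aligned to rn6 with STAR 2.5.2b, and counted without strand at a mapping quality of 10 or more with featureCounts 1.6.3 on Ensembl release 95 gene names. The methods name a UCSC annotation instead. Reads from overlapping genes on opposite strands therefore cannot be told apart.

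Groups came from the sample titles. Counts were normalised by the upper quartile, filtered by edgeR's filterByExpr and tested with edgeR 4.0.16 (quasi-likelihood) in R 4.3.3, with Benjamini-Hochberg adjustment over all genes tested. METH was compared with saline per region in 8 samples, each region with the mean of the other 3 in the 16 saline or 16 METH samples, and the averaged and the differing METH effect in all 32. SE is the log2 fold change divided by the root of the F statistic. CPM used the upper-quartile library sizes of all 32 samples, and library totals were 11094002 to 21869773. The tests were checked on simulated counts. Alternatives were DESeq2 1.42.0, 2 RUVr factors, other filters and normalisations, a replicate block, 1 fit of all samples, a stricter threshold and left-out libraries. Others were added after seeing the data. They were sequencing run, as read from the header strings, as a covariate, the joint omissions of doubtful libraries, and summed SVZ METH samples sharing a header number.

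The members, the other pathway genes and the marker lists were chosen with earlier results of these data known. Genes were named by rule: for each region the extremes among members called in saline (or the 5 with the smallest p), the 5 with the smallest p for METH, preset ligand and receptor sets, members that the study lists as region-specific, those with the smallest p for the averaged and differing effects, and the highest and lowest levels per kilobase. Sema4d, Plxnb3, Ntn3 and the members counted as not overlapping were looked at further after their values were seen. Promoters came from RefSeq tables for GRCr8, and no coordinates were converted.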

Additional observations from a re-analysis of the deposited data

Results flagged for a closer look

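The 26 genes named by rule from the region and METH tests made 208 groups of 4. Of these, 17 held a sample set apart from the other 3 beyond Dixon's 95% critical value. Chance gives about 1 in 20. Over all 67 members it was 56 of 536 groups. No METH effect was found to differ between regions after adjustment.

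The values in libraries whose markers went against their labels come before the others. In NAc METH 3, Plxna1 was high at 193 CPM, Slit1 high at 137 and Sema3e low at 40.8. In DG Sal 3, Robo1 was high at 132 CPM. In SVZ Sal 1, with thalamic markers, Ephb2 was high at 13.1, Sema4g at 73.3 and Unc5c at 105 CPM, and Sema6b in SVZ METH 2 was at 107.

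The rest fall in other libraries. Slit1 was high in DG Sal 1 at 296 CPM and in DG METH 1 at 401. Ephb6 was high in CA Sal 4 at 177 and in SVZ METH 1 at 102. Ephb3 was high in DG Sal 2 at 42.2 and in SVZ Sal 2 at 13.1, where Sema3c was also high at 25.4. Robo1 was high in NAc Sal 3 at 168, and Efnb2 was low in NAc Sal 2 at 74.4 CPM.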

How the results depend on the processing

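Of 861 values of named genes under the alternatives, 860 kept their sign, 69 no longer passed the FDR and 33 newly passed it. Unc5c in NAc turned to -0.022 with header run as a covariate (0.31 without it). That fit rests on NAc Sal 3 and 4 against METH 1 and 2. For METH against saline with 2 RUVr factors, 21 members in NAc had an unadjusted p under 0.05 (13.7% of all genes). There were 29 in DG (20.5%), 21 in CA (13.3%) and 25 in SVZ (20.1%). In 1 fit of all samples there were 0 in NAc (2.7%), 4 in CA (3.65%) and 3 in SVZ (5.16%). With header run as a covariate 2 in CA had such a p (5.32%). In SVZ there were 2 by DESeq2 (3.48%) and 9 without the 3 libraries with thalamic markers (6.73%). In DG 9 members passed the FDR by DESeq2 (3.6%), 8 with RUVr factors (2.48%) and 3 in 1 fit of all samples (1.29%). Without the doubtful libraries, the averaged effect had 3 and the differing effect 15 members at that p. The share of all genes in those fits is not given, so the counts are not a result about the members.

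For regions in saline, DESeq2 called 18 members among regions (17.7% of all genes). It called 1 in NAc (1.4%), 1 in DG (0.119%), 17 in CA (12.9%) and 14 in SVZ (11.4%). With all 32 samples in the fit the counts were 36 (47.6%), 18 (18.6%), 8 (4.11%), 24 (26.2%) and 29 (37.8%). Without DG Sal 3 and SVZ Sal 1 they were 19 (20.2%), 3 (4.88%), 5 (4.31%), 15 (11.6%) and 10 (15.0%). SVZ had 1 without a filter on low counts. A stricter threshold left 2 in CA and 0 in SVZ in saline, and 3 in NAc, 6 in DG, 1 in CA and 7 in SVZ in METH samples. The share of all genes is not given for the stricter threshold or for the fit without a filter. DESeq2 called 16 in NAc (11.5% of all genes) and 16 in CA (11.3%) in METH samples.

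METH and saline samples of the same number were not all correlated: the correlation was over 0.1 in 1 of 4 pairs in NAc, 3 in DG, 2 in CA and 1 in SVZ. Between regions it was over 0.1 in 7 of 24 pairs in saline, 4 of them those of NAc with CA, and in 7 of 24 in METH samples. With a replicate block 2 members differed among regions in saline (2.42% of all genes), 1 in SVZ (2.66%). In METH samples 6 were called in NAc with that block (5.34%). With the SVZ METH libraries of the same header number summed, 0 members had an unadjusted p under 0.05 in SVZ (1.09%). In that setting 14 were called in CA in METH samples (8.53%).

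Leaving out 1 library at a time gave, at an unadjusted p under 0.05, 1 to 6 members in NAc (1 without Sal 3, METH 1 or METH 4, 5 without METH 3, 6 without Sal 4), 12 to 24 in DG, 3 to 15 in CA (3 without Sal 1, METH 2 or METH 4, 5 without Sal 4, 15 without Sal 2) and 0 to 19 in SVZ (0 without Sal 3, METH 2 or METH 4, 2 without METH 1, 3 without Sal 2 or METH 3, 19 without Sal 1). In DG 0 to 1 passed the FDR, the 1 being Nrp1 without DG Sal 1. The share of all genes moved with the library left out as well. In SVZ it was 2.58% with all samples, 1.47% without METH 2 and 1.37% without METH 4. For most fits with 1 library left out, here and below, that share is not given. The counts are therefore not a result about the members.

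In saline it gave 0 to 13 among regions (0 without SVZ Sal 3, 1 without NAc Sal 3, CA Sal 1 or CA Sal 3, 5 without CA Sal 2 or SVZ Sal 4, 6 without SVZ Sal 2), 0 to 2 in NAc and 0 to 3 in DG (2 and 3 without DG Sal 3), 0 to 14 in CA (0 without CA Sal 1 or CA Sal 3, 7 without NAc Sal 3 or SVZ Sal 3) and 0 to 11 in SVZ (0 without SVZ Sal 3, 11 without NAc Sal 1 or DG Sal 3, 1 without SVZ Sal 4, NAc Sal 2, 3 or 4, or CA Sal 1 or 3, 2 without DG Sal 1 or 2 or CA Sal 2 or 4). In METH samples it gave 23 to 41 among regions, 4 to 15 in NAc (4 without NAc METH 2, 5 without NAc METH 1 or 4, 6 without DG METH 1 or CA METH 2 or 4), 7 to 21 in DG (7, 10 and 8 without DG METH 1, 2 and 4), 2 to 14 in CA (2 without CA METH 2 or 4, 14 without NAc METH 3 or SVZ METH 1) and 13 to 37 in SVZ (13 without SVZ METH 2 or 4).

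The averaged effect had 0 at the FDR and 3 to 8 at the unadjusted p (8 without DG Sal 1, 3 without NAc Sal 1 or 3, DG Sal 4, DG METH 1 or 2, CA Sal 2 or 4, CA METH 2 or 4, SVZ Sal 3 or SVZ METH 4). The differing effect had 0 to 1 (1 without CA Sal 4) and 6 to 18 (13 without NAc METH 3 or DG METH 3, 18 without SVZ Sal 1). With 4 samples a group, differences within these spreads were not detectable.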

Other observations

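The SVZ libraries with thalamic markers, Sal 1, METH 2 and METH 4, shared further guidance values that the comparisons do not show. Sema7a, the semaphorin with a lipid anchor, was at 434, 336 and 321 CPM in these 3 and at 54.9 to 107 in the other 5 SVZ libraries. Plxnd1, the Sema3e receptor, was at 17.2, 16.5 and 26.3 CPM against 47.1 to 122, and Plxna2 at 132, 151 and 171 against 230 to 440. Unc5c, a netrin receptor, was at 105, 114 and 108 against 39.8 to 57.9. In none of these genes did the 3 overlap the other 5. They are examples: Sema6d, Plxnb3 and Unc5b were apart in the same way, and the share of all genes that were apart was not counted. The 3 also carry the added header tag, and so does SVZ Sal 2, with Sema7a at 62.2 CPM. The 3 libraries were singled out by their markers after the data were seen, and no test was made.

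NAc METH 3, the accumbens library with few medium spiny markers, had Plxnd1 at 32.1 CPM against 131 to 211 in the other NAc METH samples, Epha7 at 24.9 against 81.2 to 90.5, and Plxnb3 at 128 against 50 to 58.4.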
